A study of Mus musculus with 56 samples.

Results

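In all, 10 genes used as markers of dividing cells, Mki67, Top2a, Ccnb1, Ccnb2, Cdk1, Bub1, Aurkb, Pcna, Mcm2 and Mcm5, were followed through the male reproductive tract of the mouse. They were taken by symbol from a table of 53379 Ensembl genes, and all 10 members were found in it. The libraries came from C57BL/6 mice of 3 and 21 months, kept free of specific pathogens, and the labels give no treatment or engineered allele. Per age, 4 mice gave the testis, the efferent ductules behind it, the epididymis cut into initial segment, caput, corpus and cauda, and the vas deferens, which made 56 RNA-seq libraries in 14 groups of 4. Both sides of a mouse were pooled in a library, and all regions came from the same mice, although no label ties a library to its mouse. The mice of the study were bought from more than 1 animal centre. Which centre gave the sequenced mice of each age is not given in the sources used here. A part of the source in the age differences therefore cannot be told apart from age. The 6 regions other than the testis are called ducts here, and the question was how far the testis stood apart from them in these genes and which genes differed between the ages.

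A cell that divides first copies its DNA and then separates the copies in mitosis, and each step has its own machinery. Mcm2 and Mcm5 are subunits of the ring that unwinds DNA at replication origins, and Pcna is the clamp that holds DNA polymerase on its template. Cdk1 is the kinase that starts mitosis once it is bound to a B-type cyclin, encoded by Ccnb1 or Ccnb2. Top2a untangles replicated chromosomes, Mki67 coats the surface of mitotic chromosomes, Bub1 acts in the checkpoint that holds cells until every chromosome is attached, and Aurkb corrects faulty attachments. In the adult testis, spermatogonia divide by mitosis and spermatocytes by meiosis with much of the same machinery, whereas the epithelium of the adult epididymis and its neighbouring ducts is known for slow turnover.

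Many genes of the G2 phase and mitosis carry a CCAAT box and a cell cycle homology region (CHR) in their promoters, and many replication genes carry an E2F site. RefSeq promoter windows of 300 bases on GRCm38.p6, 250 bases before and 50 after the start of transcription, matched 9 of the 10 members; none was matched for Aurkb. Of these, 4 are printed as examples of members with different roles: a B-type cyclin, the mitotic kinase, the topoisomerase and a replication gene. Capitals mark CCAAT, the CHR letters TTTGAA or TTCGAA and the E2F letters TTTCCCGC, TTTGGCGC, TTTCGCGC or TTTGCCGC on either strand, so that ATTGG is CCAAT on the opposite strand.
Ccnb2 chr9:70421505-70421804 (- strand): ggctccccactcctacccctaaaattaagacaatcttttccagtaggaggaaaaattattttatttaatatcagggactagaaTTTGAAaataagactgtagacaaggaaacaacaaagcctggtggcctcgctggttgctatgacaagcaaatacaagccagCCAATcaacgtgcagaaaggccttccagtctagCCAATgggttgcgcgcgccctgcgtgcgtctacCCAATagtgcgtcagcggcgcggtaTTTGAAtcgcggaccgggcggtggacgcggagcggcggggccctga
Cdk1 chr10:69352863-69353162 (- strand): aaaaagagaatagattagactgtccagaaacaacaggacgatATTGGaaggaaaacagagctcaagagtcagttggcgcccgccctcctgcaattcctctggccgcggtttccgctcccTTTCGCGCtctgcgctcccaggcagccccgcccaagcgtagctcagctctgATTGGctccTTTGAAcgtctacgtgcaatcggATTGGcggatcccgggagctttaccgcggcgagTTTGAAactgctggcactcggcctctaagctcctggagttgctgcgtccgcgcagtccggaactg
Top2a chr11:99024140-99024439 (- strand): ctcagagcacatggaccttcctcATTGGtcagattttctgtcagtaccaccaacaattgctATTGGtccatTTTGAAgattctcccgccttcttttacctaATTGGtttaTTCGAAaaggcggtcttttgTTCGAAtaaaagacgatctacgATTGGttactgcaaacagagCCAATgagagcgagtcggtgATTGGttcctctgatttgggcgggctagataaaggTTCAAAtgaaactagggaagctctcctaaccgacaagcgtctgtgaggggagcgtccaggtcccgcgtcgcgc
Mcm5 chr8:75109259-75109558 (+ strand): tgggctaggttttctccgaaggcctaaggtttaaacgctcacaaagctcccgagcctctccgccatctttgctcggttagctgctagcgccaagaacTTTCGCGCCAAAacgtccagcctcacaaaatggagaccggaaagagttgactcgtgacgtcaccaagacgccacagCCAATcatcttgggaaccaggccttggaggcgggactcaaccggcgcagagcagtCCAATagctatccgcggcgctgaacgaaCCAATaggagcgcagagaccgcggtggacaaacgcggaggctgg
CCAAT was found in 9 of the 9 windows, against 37.4% of the 32851 mouse promoter windows of this length. The CHR letters stood in 6 windows, those of Mki67, Top2a, Ccnb2, Cdk1, Bub1 and Mcm2, against 19.2% of all windows. E2F letters were in the windows of Cdk1 and Mcm5, against 2.26% of all windows. Top2a had 4 CHR and 6 CCAAT matches, Mcm5 had 2 E2F matches that overlap on opposite strands and no CHR, and Pcna had 1 CCAAT match only. These are matches of letters and say nothing about binding.

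Library totals ran from 11125279 to 20561967 counts, with a median of 16384049. Levels are given as CPM, counts scaled to a common library total, after TMM scaling over all 56 libraries, and tests are edgeR quasi-likelihood F-tests with adjustment over all genes tested, 36977 in the fit of all libraries. A gene is called where its adjusted p was under 0.05. Germ cell markers were in keeping with the label of the testis, since 9 spermatid genes summed to 9393 CPM or more in every testis library and to at most 664 CPM in any duct library. Of the libraries of 3 months, 3 stood apart. In the caput library of replicate 2, 49.7% of counts fell on the single gene Gm42418, against 1.27 to 36.0% in all others. In the efferent ductule library of replicate 3, 9 spermatocyte genes summed to 22.6 CPM, against 4.38 to 6.47 in the other 3, and in the cauda library of replicate 3, 9 macrophage genes summed to 3608 CPM, against 448 to 481.

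The testis held more mRNA of 9 of the 10 members than the ducts did, and less of Mcm2 only. At 3 months, Bub1 was 93.2 times as high in the testis as in the mean of the 6 ducts, Ccnb2 46.1 times, Ccnb1 34.9 times, Top2a 23.6 times, Cdk1 14.02 times, Aurkb 10.1 times and Mki67 4.47 times. The replication genes came last in this order, Pcna at 3.96 times, Mcm5 at 2.72 times and Mcm2 at 0.480 times the duct mean. At 21 months the order was the same, from Bub1 at 146 times to Mcm2 at 0.432 times.

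In the test of the testis against the mean of the ducts, 9 of 10 members were called higher and 1 lower at either age, where 44.7% of all genes were called higher and 30.1% lower at 3 months, and 45% and 30.2% at 21 months. Set against each duct in turn, the same 9 members were higher than in all 6 ducts at both ages, as were 29.7% of all genes at 3 months and 29.4% at 21 months. The study called genes region-specific at 4-fold or more relative to the other regions with p under 0.05. Read as an unadjusted p under 0.05 and a testis mean of at least 4 times the duct mean, 7 of 10 members were testis-specific at either age, against 29.5% of all genes at both. Read as at least 4 times each duct, with an unadjusted p under 0.05 against each, 6 of 10 were at 3 months and 7 at 21 months, against 21.9% and 21.7% of all genes. The member lost at 3 months was Mki67, at 2.74 times the initial segment. Pcna at 3.96 times and Mki67 at 4.47 times were the members on either side of that fold at 3 months. The count of 7 rests on this ratio of mean CPM: the fitted contrast of Pcna, a log2 fold change of 2.04, lies just past 4-fold, and 8 members passed with DESeq2, without replicate 1, 3 or 4, or without the libraries that stood apart. Without the caput and efferent ductule libraries named above the counts of 9 stayed at 9, and without the cauda library as well. In whole tissue, more dividing cells and more of this mRNA per cell cannot be told apart.

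**Figure D1:**
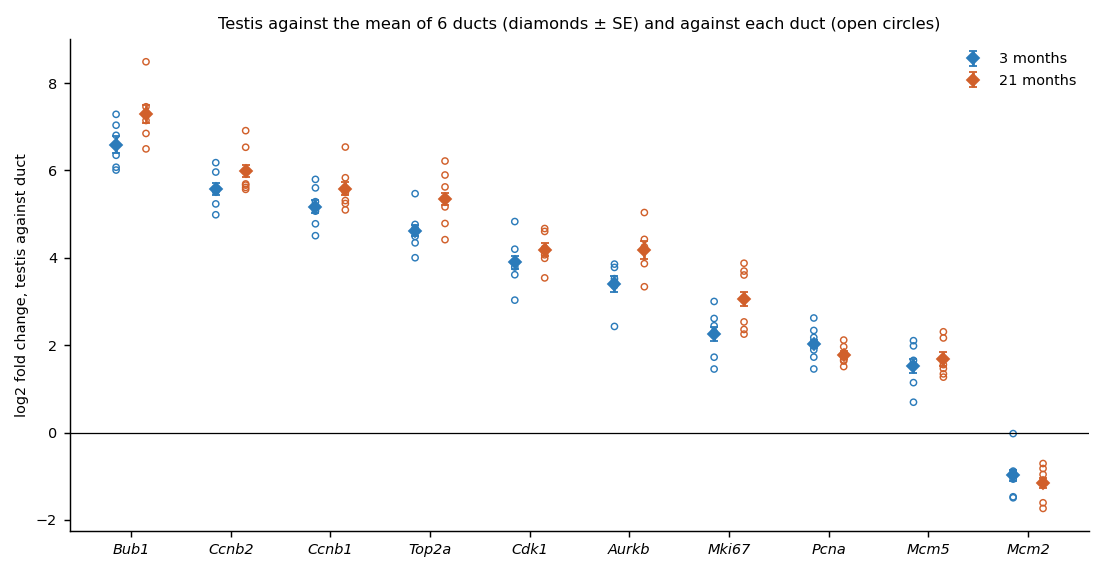
Log2 fold change of the testis against the ducts (y axis) for the 10 genes (x axis) at 3 and 21 months. Diamonds with SE bars give the contrast with the mean of 6 ducts and open circles the contrast with each duct: the points of 9 genes lie above 0, and those of Mcm2 lie below it, from -1.74 to -0.02.

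Among the mitotic genes the gap between the testis and the ducts was widest for Bub1 (chr2:127801122-127831865 on GRCm38, minus strand). Its 4 testis libraries of 3 months held 118, 112, 125 and 112 CPM, and the 24 duct libraries ran from 0 to 3.72 CPM with a median of 1.01. Every duct library lay far below every testis library, and the log2 fold change was 6.59 (SE 0.20, adjusted p = 2.03e-35). At 21 months the testis libraries held 113, 124, 118 and 118 CPM and the ducts 0.166 to 1.92 CPM, a log2 fold change of 7.29 (SE 0.20).

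The B-type cyclins followed. Ccnb2 (chr9:70407692-70421547) was at 103, 105, 102 and 87.0 CPM in the testis libraries of 3 months and between 0.887 and 4.27 CPM in the ducts, with a median of 1.91. Ccnb1 (chr13:100778650-100786570) was at 46.2, 51.1, 47.2 and 46.7 CPM in the testis and between 0.401 and 3.50 CPM in the ducts. Both sets of values were well apart, with log2 fold changes of 5.58 (SE 0.13) and 5.17 (SE 0.15) at 3 months and 6.00 (SE 0.14) and 5.59 (SE 0.15) at 21 months. Their partner Cdk1 (chr10:69335146-69352938) had the log2 fold changes 3.896 (SE 0.14) and 4.18 (SE 0.15), from 28.7 to 30.3 CPM in the testis at 3 months against a duct median of 1.95 CPM.

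Top2a (chr11:98992943-99024189) had the largest CPM of all 10 members in the testis, 237, 214, 201 and 251 at 3 months. In the ducts it ran from 4.01 to 17.5 CPM with a median of 9.18, and the log2 fold change was 4.62 (SE 0.14) at 3 months and 5.35 (SE 0.14) at 21 months. Aurkb (chr11:69045647-69051664) was the lowest mitotic gene of the testis, at 16.4, 14.8, 12.2 and 16.2 CPM, with log2 fold changes of 3.40 (SE 0.19) and 4.18 (SE 0.20). Mki67 (chr7:135689784-135716361), the most used marker of cycling cells, had the smallest mitotic contrast. Its testis libraries were at 85.0, 76.7, 75.0 and 76.6 CPM, and its duct libraries ran from 8.57 to 36.0 CPM with a median of 14.98, so that testis and ducts did not overlap. The log2 fold change was 2.26 (SE 0.16) at 3 months and 3.05 (SE 0.15) at 21 months.

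Of the replication genes, Pcna (chr2:132249162-132253314) was higher in the testis, at 80.9, 92.2, 97.0 and 86.3 CPM against 12.4 to 37.3 CPM in the ducts at 3 months. The log2 fold change was 2.04 (SE 0.09) at 3 months and 1.77 (SE 0.09) at 21 months. Mcm5 (chr8:75109569-75128439) was at 22.3, 22.2, 24.9 and 21.3 CPM in the testis and at 3.08 to 17.0 CPM in the ducts, with log2 fold changes of 1.52 (SE 0.15) and 1.68 (SE 0.15). The least of its contrasts was with the efferent ductules of 3 months, a log2 fold change of 0.69 (adjusted p = 0.0045).

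Mcm2 (chr6:88883474-88898780) ran the other way although its protein works in the same ring as that of Mcm5. Its testis libraries of 3 months held 10.7, 12.6, 12.2 and 11.8 CPM, the corpus 34.0, 38.4, 32.2 and 28.7 CPM and the cauda 33.1, 35.2, 26.5 and 36.4 CPM. The testis thus lay below the corpus and cauda without overlap. Against the mean of the ducts the log2 fold change was -0.98 (SE 0.12, adjusted p = 8.85e-11) at 3 months and -1.16 (SE 0.12, adjusted p = 8.83e-13) at 21 months. Against single ducts the testis was lower in 5 of 6 at 3 months, the exception being the vas deferens at 10.52, 12.3, 14.8 and 10.46 CPM (log2 fold change -0.02, adjusted p = 0.92). At 21 months it was lower than in all 6 ducts. The median gene of the fit differed by 0.27 and 0.30 log2 between the testis and the ducts at the ages, so relative to it Mcm2 lay somewhat lower still and the other members somewhat less high.

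**Figure D2:**
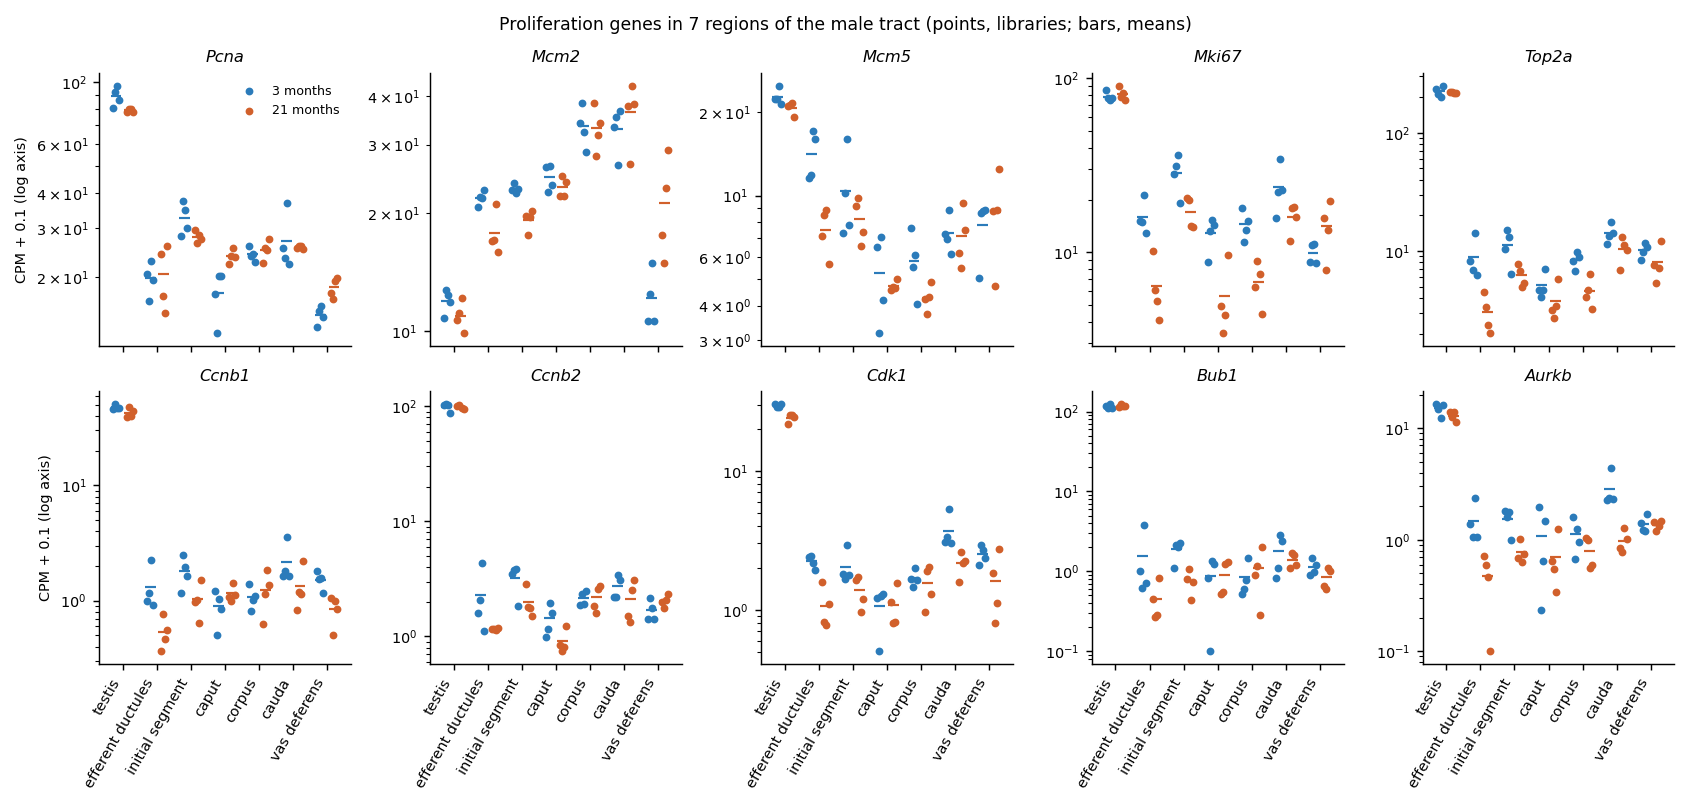
CPM plus 0.1 on a log axis (y) for the 10 genes in 7 regions (x), with 1 point per library, bars at the group means and colours for the ages. In 9 panels the testis stands above the ducts, while the Mcm2 panel climbs from 11.8 CPM in the testis to 33.3 CPM in the corpus at 3 months.

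Levels of different genes were set side by side per kilobase of exon. The exons of all annotated transcripts of a gene were merged, to 1531 bases for Ccnb2 and 2400 for Pcna. A merged length can exceed that of the mRNA present, so the order of the genes depends on the annotation. In the testis of 3 months Ccnb2 came first at 64.8 CPM per kb, then Pcna at 37.1, Bub1 at 26.8, Top2a at 25.1, Ccnb1 at 11.3, Mki67 at 7.79, Cdk1 at 5.97, Mcm5 at 5.68, Aurkb at 5.06 and Mcm2 at 1.70 CPM per kb. In the caput of 3 months Pcna was first, at 7.28 CPM per kb, Mcm2 at 3.55, Mcm5 at 1.29 and Mki67 at 1.28, while each of the other 6 members was under 1 CPM per kb. In the initial segment and the cauda Mki67, at 2.84 and 2.35 CPM per kb, stood ahead of Mcm5 at 2.57 and 1.80. Processed pseudogenes of Ccnb1, Ccnb2 and Pcna can share reads with their parents; Ccnb1-ps held 104 counts, Ccnb2-ps 602 and Pcna-ps2 202 over all 56 libraries, and Pcna-ps1 none.

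Within the ducts the members were not level. An F-test over the 6 ducts called 9 of 10 members at 3 months and 9 of 10 at 21 months, the exception being Bub1 at either age (adjusted p = 0.0659 and 0.0661), against 68.1% and 69.3% of all genes. Mki67 ran at 3 months from 28.6 CPM in the initial segment through cauda 23.7, efferent ductules 15.9, corpus 14.4 and caput 12.8 to vas deferens 9.79 CPM. No step between neighbours in that order of ducts passed the test, the first after the testis being the initial segment and the cauda (adjusted p = 0.43). At 21 months the vas deferens, at 14.1 CPM, was ahead of the corpus at 6.70 CPM, a step that was called (adjusted p = 0.00078).

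The cauda led the ducts in Top2a (14.1 CPM), Ccnb1 (2.07 CPM), Cdk1 (3.58 CPM) and Aurkb (2.74 CPM) at 3 months. Of these, the step from the cauda to the next duct was called for Aurkb alone (initial segment 1.45 CPM, adjusted p = 0.028). The cauda library of replicate 3, the one with the high macrophage sum, was the highest of its group in all 4 genes: for Aurkb it held 4.30 CPM against 2.16 to 2.29 in the other 3. The part of that library in the lead of the cauda was not tested. The caput was the lowest duct at 3 months for Top2a, Ccnb1, Ccnb2, Cdk1, Aurkb and Mcm5. The step down to it from the next duct was called for Top2a only (adjusted p = 0.033), with adjusted p from 0.12 to 1.0 for the other 5, and the part of the caput library rich in Gm42418 was not tested.

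Mcm2 and Mcm5 were not ordered alike along the ducts. Mcm5 was highest in the efferent ductules at 3 months (14.03 CPM), next to the initial segment (10.3 CPM), and lowest in the corpus (5.72 CPM) and caput (5.14 CPM). Mcm2 was highest in the corpus (33.3 CPM) and cauda (32.8 CPM), which did not differ from each other (adjusted p = 1.0) and were above the caput at 24.7 CPM (cauda against caput adjusted p = 0.020). Pcna was highest in the initial segment at both ages (32.5 and 27.7 CPM) and lowest in the vas deferens (14.5 and 18.2 CPM), but no step between neighbouring ducts was called at either age.

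Across the 48 duct libraries, a member's log2(CPM + 1) was compared with the mean of the other 9. Top2a was closest to the rest (Pearson r = 0.84), then Mki67 (0.78), Ccnb2 (0.76), Cdk1 (0.75), Aurkb (0.72), Ccnb1 (0.70) and Bub1 (0.68). Pcna (0.43), Mcm5 (0.41) and Mcm2 (0.21) were less alike. After subtracting the group means, Pcna (0.54) and Mcm5 (0.62) stood with the mitotic genes and Mcm2 (0.08) still did not. These values describe libraries that share mice and regions and carry no test.

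The genes of at least 1 mean CPM in the ducts most like the members were Kif15 (r = 0.85), Pbk (0.79), Cenpf (0.79), Atad2 (0.79), Kif20a (0.79), Dlgap5 (0.78), Son (0.78), Aspm (0.78), Nusap1 (0.77) and Hmmr (0.77), out of 17863 genes. As background, Kif15 and Kif20a encode mitotic kinesins, and Cenpf, Nusap1, Hmmr, Aspm and Dlgap5 encode proteins of the kinetochore or spindle. Pbk, Atad2 and Son are not counted among these, and Son stood at a mean of 481 CPM in the ducts. With Spearman's correlation 7 of these 10 stayed among the first 10, and with log2(CPM + 0.1) 9 did.

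The wider machinery was followed in lists of cell cycle genes. Of 32 mitosis genes, 30 were higher in the testis than in the mean of the ducts at 3 months and 1 lower, with a median log2 fold change of 4.498, against 0.27 for all genes tested. Of 30 replication genes, 22 were higher and 5 lower, with a median of 1.23, and of 20 genes of G1 and cell cycle control 14 were higher and 4 lower, with a median of 1.47, where 44.7% of all genes were higher and 30.1% lower. At 21 months the counts were 30 and 1, 22 and 4, and 15 and 4, where 45% of all genes were higher and 30.2% lower. All 5 germ line paralogs were higher at both ages, among them Ccnb3 (log2 fold change 8.09 at 3 months and 7.40 at 21 months) and Aurkc (8.003 and 9.03), a kinase related to Aurkb that serves meiosis. Aurkc had no count in the vas deferens at either age, so that its fitted value depends on the prior count of the fit. Lowest were Ccnd1 and Ccnd2, D-type cyclins, which carry cells through G1 in response to growth factors: Ccnd1 was at -4.42 (SE 0.18) at 3 months and -4.53 (SE 0.18) at 21 months, and Ccnd2 at -3.67 (SE 0.15) and -3.46 (SE 0.15). The other D-type cyclin, Ccnd3, named after its value was seen, was higher in the testis, at 0.71 (SE 0.13) and 0.68 (SE 0.13). The 1 mitosis gene lower in the testis was Cdc25b. Of the replication genes, and chosen after its value was seen, Mcm4, another subunit of the helicase ring, was also lower, at -0.76 (SE 0.10) at 3 months and -0.94 (SE 0.10) at 21 months, while its partners Mcm3 (1.06), Mcm6 (0.74) and Mcm7 (2.89 at 3 months) were higher in the testis.

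**Figure D3:**
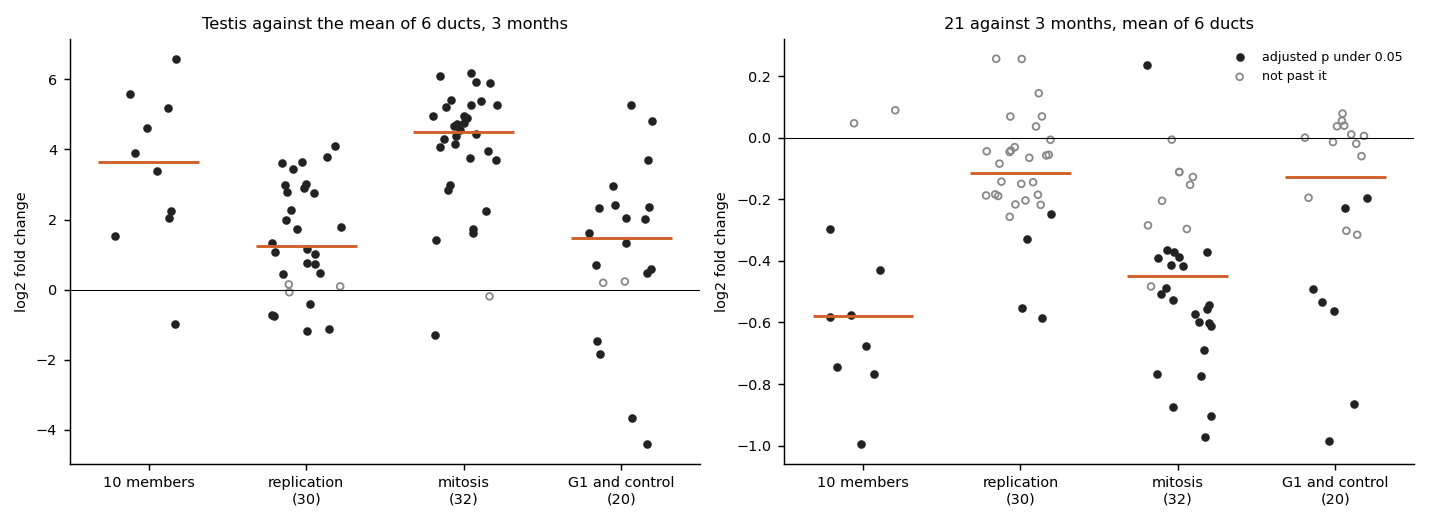
Log2 fold changes (y) of the 10 members and of 3 lists of cell cycle genes (x), for the testis against the mean of the ducts at 3 months (left) and for 21 against 3 months in the mean of the ducts (right). Filled points passed an adjusted p of 0.05 and bars are medians: on the left the mitosis genes lie at a median of 4.498 and the replication genes at 1.23, on the right at -0.45 and -0.11.

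Age was compared in each region on its own, 4 libraries against 4, with TMM scaling within the region. In the testis no member was called in either direction, where 0.21% of all genes were called lower and 0.353% higher. At an unadjusted p under 0.05, 4 of 10 members were lower (Cdk1, Pcna, Ccnb1 and Aurkb), as were 5.05% of all genes, and DESeq2 called 1 member at its adjusted p. That was Cdk1, at 29.1, 27.6, 27.7 and 29.3 CPM at 3 months and 20.7, 24.2, 24.2 and 23.6 CPM at 21 months. Both ages were apart without overlap, as 3.23% of all genes were in this direction, and the log2 fold change was -0.30 (SE 0.08, adjusted p = 0.084). Pcna did not overlap either, at 77.8 to 93.6 CPM against 75.0 to 77.1 CPM (log2 fold change -0.17, adjusted p = 0.26). The other 8 members lay between -0.22 and 0.05 log2.

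**Figure D4:**
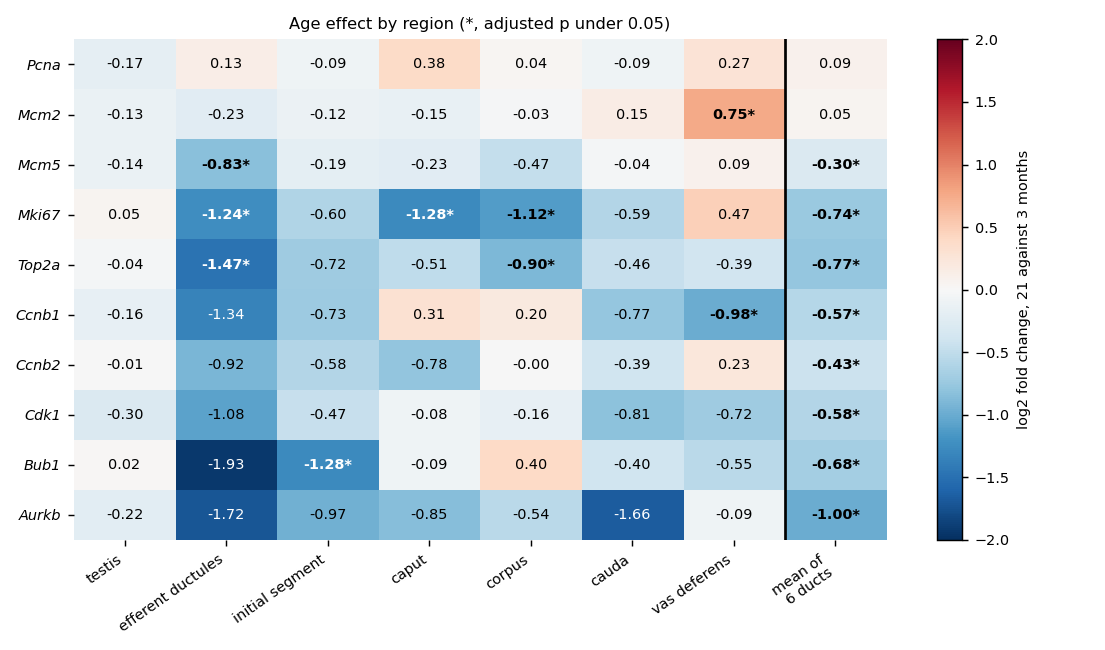
Log2 fold change of 21 against 3 months (number and colour in each cell) for the 10 genes (rows) in 7 regions and in the mean of the 6 ducts (columns). Stars mark adjusted p under 0.05: 8 in the separate regions are negative and 1, Mcm2 in the vas deferens, is positive.

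The efferent ductules, which carry sperm from the testis and absorb most of its fluid, had 3 of 10 members called lower at 21 months, Mki67, Top2a and Mcm5, where 2.98% of all genes were called lower and 4% higher. By the thresholds of the study, an unadjusted p under 0.05 and at least 1.5-fold, 8 of 10 were lower, against 6.16% of all genes. The median log2 fold change over the 10 members was -1.16, against -0.04 over all genes of the region, and 9 of 10 lay below 0.

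Mki67 held 17.0, 17.1, 20.8 and 14.9 CPM in the efferent ductules at 3 months and 12.4, 6.66, 5.90 and 4.73 CPM at 21 months. The ages did not overlap, and the log2 fold change was -1.24 (SE 0.26, adjusted p = 0.022). Top2a went from 9.22, 7.89, 14.04 and 7.15 CPM to 5.40, 3.64, 2.60 and 2.26 CPM, a log2 fold change of -1.47 (SE 0.30, adjusted p = 0.020). Mcm5 went from 13.01, 13.6, 16.7 and 18.5 CPM to 8.64, 9.37, 10.05 and 6.56 CPM, a log2 fold change of -0.83 (SE 0.17, adjusted p = 0.022). In all 3 genes every library of 21 months was below every library of 3 months.

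Ccnb1, Cdk1 and Aurkb did not overlap between the ages of the efferent ductules either, but their adjusted p were 0.068, 0.064 and 0.089. In all, 6 of 10 members were lower without overlap, against 9.94% of all genes. Aurkb was at 24, 18, 41 and 19 counts at 3 months and at 7, 9, 6 and 0 counts at 21 months (log2 fold change -1.72, SE 0.56). Bub1 had the most negative value, -1.93 (SE 0.71, adjusted p = 0.13), with 68 counts in the library of replicate 3 that also had the high spermatocyte sum, and 10 to 17 in the other 3 at 3 months. Pcna (0.13) and Mcm2 (-0.23) were nearest to 0.

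The share of counts on Gm42418 also moved with age in the efferent ductules, from 1.27 to 3.29% of a library at 3 months to 4.93 to 22.2% at 21 months, without overlap. The libraries of replicates 1 and 4 at 21 months, with shares of 22.2 and 18.5%, had totals of 11442133 and 11125279 counts, against 14627147 or more in the other 6. With Gm42418 left out of the counts, an alternative chosen after seeing the data, Mki67, Top2a and Mcm5 were again the members called. Of all genes 2.98% were then lower and 3.99% higher. TMM scaling sets aside extreme genes, so leaving this gene out could change the calls little and decides nothing about its part. The part of Gm42418 in the values of the members was not tested. Leaving out 1 library moved the adjusted p of these calls across 0.05. Without replicate 1, 3 or 4 of 3 months none of the 10 was called, where 0.519%, 0.71% and 0.46% of all genes were lower. Without replicate 2 of 3 months Top2a and Mcm5 were called (1.33% of all genes lower), and without replicate 1 of 21 months 4 were (3.71%). Without replicate 3 of 3 months, the log2 fold change of Top2a was -1.22 (adjusted p = 0.062) and that of Mki67 -1.14 (adjusted p = 0.072). Over all 8 libraries left out in turn, the log2 fold change stayed between -1.58 and -1.09 for Mki67, between -1.74 and -1.22 for Top2a and between -0.91 and -0.72 for Mcm5. With scaling by library size only, 9 of 10 members were lower, but then 18.8% of all genes were called lower and 1.56% higher.

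**Figure D5:**
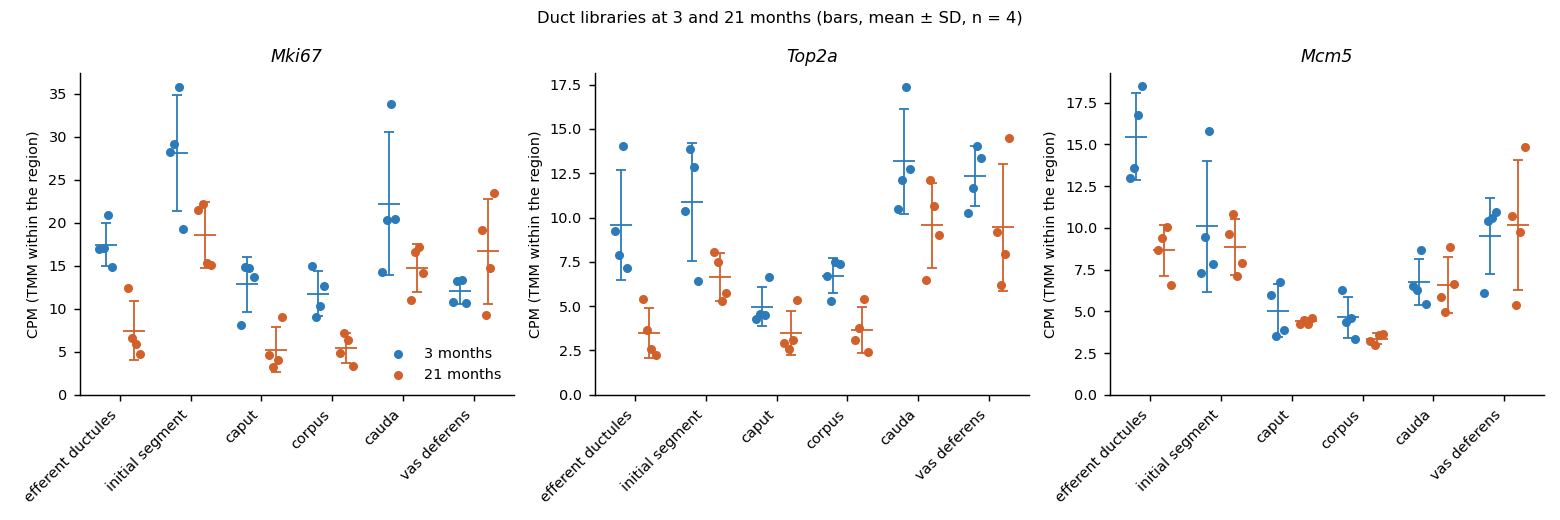
CPM scaled within each region (y, from 0) of Mki67, Top2a and Mcm5 in the 6 ducts (x), with 1 point per library and bars at mean and SD of 4 libraries. The ages part without overlap for all 3 genes in the efferent ductules, and for Mki67 also in the corpus.

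In the epididymis itself, Mki67 was the member with most calls. In the corpus it fell from 14.9, 9.07, 10.3 and 12.6 CPM at 3 months to 4.86, 7.23, 6.35 and 3.32 CPM at 21 months, without overlap, as were 5.27% of all genes (log2 fold change -1.12, SE 0.21, adjusted p = 0.0077). It was called there in all 17 alternatives tried for this region. Top2a fell as well, from 6.72, 5.31, 7.51 and 7.37 CPM to 3.10, 3.77, 5.41 and 2.39 CPM (-0.90, SE 0.22, adjusted p = 0.035), though the ages overlapped and the call was lost without any of 5 libraries, replicates 3 and 4 of 3 months and 1, 2 and 4 of 21 months (adjusted p up to 0.121 over all alternatives). In the corpus 2 of 10 members were thus called, both lower, against 1.47% of all genes lower and 1.5% higher (1.41% and 0.619% with library size only). Ccnb1 was at 0.20 and Bub1 at 0.40 log2 there, and Ccnb2 had a mean of 1.68 CPM at both ages.

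In the caput 1 of 10 members, Mki67, was lower, where 5.05% of all genes were called lower and 3.09% higher. It went from 8.12, 14.9, 14.8 and 13.7 CPM to 4.61, 3.27, 4.00 and 9.09 CPM (log2 fold change -1.28, SE 0.29, adjusted p = 0.020), and 1 library of 21 months lay above 1 of 3 months. The call was lost without replicate 3 or 4 of 3 months or replicate 1, 2 or 3 of 21 months (adjusted p up to 0.0737 over all alternatives) and was kept without replicate 2 of 3 months, the one rich in Gm42418. Pcna was at 16.03, 14.1, 19.6 and 19.1 CPM at 3 months and at 21.2, 23.2, 23.6 and 22.1 CPM at 21 months, without overlap, as were 8.26% of all genes (0.38, SE 0.12, adjusted p = 0.075), and DESeq2 called it higher.

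In the initial segment all 10 members lay below 0, with a median of -0.59, against -0.01 over all genes, and 1 of 10 was called, where 3.01% of all genes were called lower and 3.35% higher. That was Bub1, which fell from 1.01, 1.90, 1.91 and 2.23 CPM to 0.744, 1.10, 0.366 and 0.697 CPM (log2 fold change -1.28, SE 0.36, adjusted p = 0.047). These were 14 to 34 counts per library at 3 months and 5 to 14 at 21 months, and leaving out any of 6 libraries, replicates 2, 3 and 4 of 3 months and 1, 3 and 4 of 21 months, ended the call (adjusted p up to 0.114 over all alternatives). Mki67 (-0.60, adjusted p = 0.053) and Top2a (-0.72, adjusted p = 0.069) were just outside it, and DESeq2 called both lower along with Bub1.

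In the cauda, which stores sperm, no member was called by edgeR in the fit of this region, where 0.0583% of all genes were lower and 0.07% higher; 3 of 10 members were lower at an unadjusted p under 0.05, as were 5.95% of all genes, and DESeq2 called 1 member at its adjusted p. That was Aurkb, at 1.97, 2.09, 4.26 and 2.01 CPM at 3 months and 0.706, 0.622, 1.11 and 0.820 CPM at 21 months. The ages did not overlap, as in 4.62% of all genes in this direction, and the log2 fold change was -1.66 (SE 0.34, adjusted p = 0.099). Cdk1 did not overlap either (-0.81, adjusted p = 0.35). In both genes the highest library of 3 months was replicate 3, the one with the high macrophage sum. Without it the log2 fold change was -1.30 for Aurkb (adjusted p = 0.097) and -0.53 for Cdk1 (adjusted p = 0.54). In the fit of all 56 libraries Aurkb was called lower in the cauda, where 2.7% of all genes were.

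The vas deferens, the muscular duct that carries sperm onwards, had a member in each direction, where 8.47% of all genes were lower and 11.4% higher. These shares give about as many calls for a set of this size, so the members did not stand out in number. Ccnb1 fell from 2.10, 1.74, 1.80 and 1.34 CPM to 1.16, 0.475, 0.998 and 0.894 CPM (log2 fold change -0.98, SE 0.31, adjusted p = 0.048). Mcm2 rose from 13.1, 14.9, 18.0 and 13.1 CPM to 21.5, 17.4, 25.6 and 34.9 CPM (0.75, SE 0.20, adjusted p = 0.023), with 1 library of 21 months inside the range of 3 months. Both calls were lost without replicate 1, 2 or 4 of 3 months or replicate 3 of 21 months, and that of Ccnb1 also without replicate 3 of 3 months or 2 or 4 of 21 months. Over all alternatives the adjusted p reached 0.128 for Ccnb1 and 0.0736 for Mcm2. Mki67 was at 0.47 log2 there (adjusted p = 0.19), on the other side of 0 from its value in the other 5 ducts. Without replicate 2 of 21 months Mki67 was called higher (0.68, adjusted p = 0.021).

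Over the ducts as a whole, the fit of all 56 libraries gave a mean age effect of the 6 ducts. It was negative and called for 8 of 10 members, where 4.43% of all genes were called lower and 3.12% higher (3.7% and 4.3% with DESeq2 size factors, 4.15% and 1.91% with library size only). Aurkb fell by 0.996 on the log2 scale (SE 0.17, adjusted p = 1.89e-05), Top2a by 0.77 (SE 0.10, adjusted p = 3.76e-07), Mki67 by 0.74 (SE 0.11, adjusted p = 7.72e-07), Bub1 by 0.68, Cdk1 by 0.58, Ccnb1 by 0.57, Ccnb2 by 0.43 and Mcm5 by 0.30. The replication genes Pcna (0.09, adjusted p = 0.45) and Mcm2 (0.05, adjusted p = 0.91) were not called. Top2a, Cdk1 and Aurkb were below 0 in 6 of 6 ducts, Mki67, Ccnb2, Bub1 and Mcm5 in 5, Ccnb1 and Mcm2 in 4, and Pcna in 2.

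This contrast treats the 24 duct libraries of an age as independent, although they come from 4 mice, and no source ties a replicate number to a mouse, so that a sum over replicate numbers may mix mice. With the 6 ducts of a replicate number summed, 4 sums per age, 4 of 10 members were lower (Mki67, Top2a, Cdk1 and Aurkb), against 2.42% of all genes, and the log2 fold changes ran from -0.94 for Aurkb to -0.62 for Mki67 among them. In the fit of all libraries, 3 members were called once replicate 3 was left out of every group, where 2.06% of all genes were called lower. There were 5 without replicate 1 (3.23% of all genes), 6 without replicate 2 (4.86%) and 6 without replicate 4 (2.4%). Without the 3 libraries that stood apart, 5 were called (4.39%).

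Whether the testis and the ducts differed in their age effect was tested directly, and no member passed, by edgeR or DESeq2, where 0.0514% of all genes were higher and 0.0135% lower. At an unadjusted p under 0.05 there were 3 of 10 members in edgeR, against 5.54% of all genes, and 4 in DESeq2, against 5.73% of all genes it tested. The largest differences were those of Mki67 (0.80, SE 0.26, adjusted p = 0.42), Aurkb (0.78, SE 0.32, adjusted p = 0.74) and Top2a (0.73, SE 0.24, adjusted p = 0.46), each with the ducts lower. A broader test, of any difference in age effect among the 7 regions, called 6 of 10 members, Mki67, Mcm2, Top2a, Ccnb1, Aurkb and Pcna, against 20.2% of all genes.

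Among the wider lists, the mitosis genes moved with the members in the ducts. In the mean of the 6 ducts 22 of 32 mitosis genes were lower at 21 months and 1 higher, with a median of -0.45 log2 against -0.02 for all genes, while 4 of 30 replication genes and 7 of 20 genes of G1 and cell cycle control were lower and none higher, where 4.43% of all genes were lower and 3.12% higher. E2f7, a repressor of E2F target genes, was lowest (-0.99, SE 0.15), followed by Cdc25c, the phosphatase that activates Cdk1 (-0.97, SE 0.21). Pttg1, which encodes securin, was the 1 gene that was higher (0.24, SE 0.06). In the efferent ductules 7 of 32 mitosis genes, 7 of 30 replication genes and 4 of 20 control genes were lower and none higher, where 2.98% of all genes were lower. Orc1, a subunit of the complex that marks origins, fell most there (-1.82, SE 0.43, adjusted p = 0.033), then E2f7 (-1.71, SE 0.33, adjusted p = 0.017). In the testis and the cauda no gene of these 3 lists was called. Ccnd2 was lower in 4 of the ducts, and most in the vas deferens, from 156 to 63.2 CPM on average (-1.31, SE 0.11), where Ube2c (1.36, SE 0.42) and Pttg1 (0.76, SE 0.10) were higher.

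Markers of other cell types moved between the ages in the same ducts. In the efferent ductules, where 4% of all genes were higher and 2.98% lower, 6 of 9 T cell genes were higher, their sum going from 5.22 to 6.37 CPM at 3 months to 14.1 to 15.5 CPM at 21 months, and 3 of 6 fibroblast genes were lower, their sum going from a range of 2606 to 3654 CPM to one of 1347 to 1514 CPM. In the corpus, with 1.47% of all genes lower, 6 of 6 fibroblast genes were lower (1512 to 3079 CPM against 690.3 to 877 CPM) and 0 of 9 T cell genes were called. In the initial segment, with 3.01% of all genes lower, 7 of 9 spermatid genes were lower, their sum going from 32.5 to 112 CPM to 9.29 to 24.5 CPM, and 2 of 9 spermatocyte genes were. In the vas deferens, with 11.4% of all genes higher, 9 of 9 T cell genes and 8 of 8 B and plasma cell genes were higher, the T cell sum going from 6.24 to 10.2 CPM to 23.3 to 64.9 CPM. In the mean of the 6 ducts, with 3.12% of all genes higher and 4.43% lower, 8 of 9 T cell genes and 8 of 8 B and plasma cell genes were higher, 6 of 6 fibroblast and 6 of 7 endothelial genes were lower, and 0 of 9 spermatocyte genes were called. Every gene of these lists had counts in at least 1 library of each duct. The part of these cell types in the values of the members was not tested.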

How the data were processed

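The RNA of 56 libraries was sequenced by the authors, who deposited a table of raw HTSeq counts per Ensembl gene, and the submitters' processing notes name cutadapt, HISAT2, HTSeq and the mm10 build, with versions not given in the sources used here. Symbols and lengths came from GENCODE M21 on GRCm38 and matched 53274 of 53379 genes. From the deposited counts, each gene that reached 10 counts over the libraries of a fit was tested with edgeR 4.0.16 in R 4.3.3 (TMM scaling, quasi-likelihood F-test, Benjamini-Hochberg over all genes, threshold 0.05). Regions were compared in 1 fit of all 56 libraries. Ages were compared in each region on its own, with CPM scaled within the region; against the scaling over all libraries this shifted age differences by up to -0.14 log2, in the initial segment. The mean age effect of the ducts was added after the design was written. The thresholds of the study (unadjusted p with 4-fold or 1.5-fold) stand beside these calls, with the 4-fold rule read against the duct mean and, chosen after seeing the data, against each duct. Library totals of 11125279 to 20561967 counts leave few counts for the low members in the ducts, and intervals cover counting and sampling only.

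The 10 members, the cell cycle lists and the cell type lists were chosen with earlier results of these data known. Named genes beyond the members are the 2 called genes with the largest and the 2 with the smallest log2 fold changes of the cell cycle lists (a selection of these is given), the 10 genes most like the members in the ducts, pseudogenes of members and Gm42418. Cdc25b, Ccnd3 and the helicase subunits Mcm3, Mcm4, Mcm6 and Mcm7 are named outside this rule, after their values were seen. Alternatives were DESeq2 1.42.0, other scalings and filters, a replicate block, other sets of libraries, and leaving out each replicate. No source states that a replicate number marks a mouse, so p-values measure the spread between these libraries, and regions of 1 mouse enter as independent. The edgeR scripts were tested on simulated data. The values of 1 gene of the replication list are not reported here.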

Additional observations from a re-analysis of the deposited data

Results flagged for a closer look

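In 8 of 140 groups of 4 libraries, 1 library lay far from the other 3 by Dixon's test, where chance gives about 1 in 20 groups. The cauda library of replicate 3 at 3 months was the highest in 3 genes, with Ccnb1 at 3.50 CPM (next 1.72), Cdk1 at 5.20 CPM (next 3.24) and Aurkb at 4.30 CPM (next 2.29). It is also the library with the high macrophage sum. The efferent ductule library of replicate 3 at 3 months held 3.72 CPM of Bub1 (next 0.902), and it has the high spermatocyte sum. The caput library of replicate 2 at 3 months, rich in Gm42418, held 0.401 CPM of Cdk1 (next 1.11), which is 3 counts. The others were Cdk1 in the initial segment of 3 months at 2.83 CPM in replicate 3 (next 1.71), Ccnb2 in the testis of 3 months at 87.0 CPM in replicate 4 (next 102) and Mcm5 in the vas deferens of 3 months at 4.92 CPM in replicate 1 (next 8.57).

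The age effect differed among the 7 regions for 6 members in an edgeR F-test, with adjusted p of 0.00042 for Mki67, 0.000597 for Mcm2, 0.0194 for Top2a, 0.033 for Ccnb1, 0.0387 for Aurkb and 0.0452 for Pcna. Mki67 ran from -1.28 log2 in the caput to 0.47 in the vas deferens, and Mcm2 from -0.23 in the efferent ductules to 0.75 in the vas deferens.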

How the results depend on the processing

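Direction was followed through the alternatives for the contrasts of the testis with the duct mean and for the called age effects. The latter were those of the mean of the ducts and of single regions. None of these changed direction. Age effects that were not called were not followed in this way. The 10 contrasts of the testis with the duct mean kept their calls in all 140 repeats at 3 months and all 140 at 21 months. Against each duct in turn at 3 months, 8 members in place of 9 were higher in the testis with library size only. The counts of members called with age did move. In the efferent ductules, 3 (2.98% of all genes lower) became 9 with scaling by library size only (18.8%) and 5 with filterByExpr (5.51%). There were 6 with DESeq2 (7.14% of the genes with an adjusted p) and 8 by the thresholds of the study (6.16%). All 56 libraries in 1 fit gave 8 (5.26%), and leaving out a replicate gave 0 to 4 (0.46 to 3.71%). In the initial segment, 1 (3.01% of all genes lower) became 0 with library size only (2.7%) or filterByExpr (2.99%). There were 3 with no filter (3.0%) or DESeq2 (3.4%) and 5 by the study thresholds (5.45%). Leaving out a replicate gave 0 to 2 (1.67 to 3.46%). In the caput, 1 (5.05% lower) became 0 with library size only (2.09%), 2 with DESeq2, 1 lower (7.01%) and 1 higher (4.47%), 2 by the study thresholds, both lower (8.48%), and 0 to 2 with a replicate left out (1.65 to 11.8%). The corpus gave 1 in the fit of 56 libraries (0.419%) and 1 to 2 with a replicate left out (0.695 to 2.45% of all genes lower). The cauda gave 1 with DESeq2 (1.31% of all genes lower), 3 by the study thresholds (4.76%) and 1 in the fit of 56 libraries (2.7%), and the testis 1 with no filter or DESeq2 (0.51% and 0.736%). With library size only, 0.3% of all genes were lower and 0.33% higher in the testis, against 0.21% and 0.353%. The vas deferens gave 1, higher, with no filter (8.55% of all genes higher) and 1, higher, in the fit of 56 libraries (8.57%). With a replicate left out it gave 0 to 3 (4.56 to 9.39% of all genes lower and 7.44 to 12.1% higher). In the mean of the ducts, 8 (4.43% of all genes lower) became 4 with summed ducts (2.42%) and 5 without the 3 libraries apart (4.39%). With a replicate left out there were 3 to 6 (2.06 to 4.86%). The difference of the testis from the ducts in age effect stayed at 0 members with DESeq2 and with a replicate left out, while the F-test over the 7 regions, which asks another question, called 6. In the efferent ductules the lower genes rose with library size only from 7 to 20 (replication), from 7 to 17 (mitosis; 13 with DESeq2) and from 4 to 13 (G1 and control). The cause was not tested.

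Replicate numbers did not pair the libraries throughout. The mean correlation of same-numbered deviations was 0.030 at 3 months and 0.0025 at 21 months. Every pair was above 0.1 in 1 of 21 (corpus with cauda) and 0 of 21 pairs of regions. At 3 months the means of single pairs of regions lay between -0.119 (initial segment with efferent ductules) and 0.188 (corpus with caput). At 21 months they lay between -0.105 (vas deferens with cauda) and 0.143 (cauda with corpus). Whether a number marks a mouse cannot be decided from these values, since regions of 1 mouse need not deviate alike. With the replicate number as a block, 9 members remained higher in the testis at both ages and 10 differed among the ducts. The share of all genes is not given for these counts. With age the efferent ductules gave 2 members in place of 3 (without Mcm5), with 0.902% of all genes lower against 2.98%. The vas deferens gave 1, higher, in place of 2 (without Ccnb1), with 6.16% of all genes lower and 9.26% higher, against 8.47% and 11.4%. The initial segment gave 1, which was Mki67 in place of Bub1, with 2.33% of all genes lower against 3.01%.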
